A study of Mus musculus with 12 samples.

Results

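The 9 genes described here, Zc3h3, Zc3h4, Zc3h6, Zc3h8, Zc3h10, Zc3h13, Zc3h14, Zc3h15 and Zc3h18, code for CCCH zinc finger proteins of mouse oocytes. They were taken by symbol from the 22801 genes of a table for metaphase II (MII) oocytes, which held all 9, and from the 3475 genes of a table for germinal vesicle (GV) oocytes, which held only Zc3h6. The set was chosen on the difference between knockout and control libraries in these same data, with Zc3h6 as its starting point, so the members' own differences are given below as a description. Where counts of calls by a test include members, they stand only beside the share over all genes, and nothing about the members is read from them. The GV table lists only genes with an unadjusted p under 0.05 and over 2-fold, so the absence of the other 8 genes means that they were not selected there, and their GV levels were not analysed here.

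RNA was sequenced from oocytes of C57BL/6 females at postnatal day 35, at the GV stage (arrested in prophase, before maturation) and at MII (mature, ready for fertilization). Knockout (CKO) oocytes carried Lsm14bfl/fl with a Gdf9-Cre transgene, and the control (WT) oocytes carried the same floxed alleles without Cre, so that both genotypes share the loxP sites and only the knockout has the transgene. Gdf9-Cre recombines in oocytes, so the deletion is restricted to the germ cell, and each library was made from a tube of 15 pooled oocytes. There were 3 biological replicates in each of the 4 groups. Lsm14b, a member of the LSM14 family, codes for an RNA-binding protein of cytoplasmic ribonucleoprotein particles.

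A CCCH zinc finger is a short protein fold in which 3 cysteines and 1 histidine hold a zinc ion, and most proteins with such fingers bind RNA. Most of the 9 genes act at different points in the life of a transcript: Zc3h4 in ending unwanted transcription, Zc3h8 in small nuclear RNA transcription, Zc3h18 and Zc3h3 in handing nuclear RNA to the exosome, Zc3h13 in methylation of adenosine in mRNA, Zc3h14 at the poly(A) tail, and Zc3h15 beside the ribosome. No such role is given here for Zc3h6 and Zc3h10. Fully grown oocytes are almost silent in transcription and live on stored maternal mRNA, part of which is removed as they mature to MII.

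The zinc finger coding stretches of Zc3h6 and of its closest relatives are shown because they define the family and show how near the relatives are to the gene with the large difference. They were read from GENCODE M21 transcripts on GRCm38, run 5′ to 3′ on the coding strand with the introns removed, and have the codons of the 3 cysteines and the histidine of each finger in capitals. The Zc3h6 stretch lies at chr2:129006080-129010486 (plus strand, exons 6 to 8), that of Zc3h8 at chr2:128929886-128931310 (minus strand, exons 5 to 7) and that of Zc3h4 at chr7:16423926-16425781 (plus strand, exons 8 to 10). Each holds 3 fingers in 216 coding bases.
Zc3h6: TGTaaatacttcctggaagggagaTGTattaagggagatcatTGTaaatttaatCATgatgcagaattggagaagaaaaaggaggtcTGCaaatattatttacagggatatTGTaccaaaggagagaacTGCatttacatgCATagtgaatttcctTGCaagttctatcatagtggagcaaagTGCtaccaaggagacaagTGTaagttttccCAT
Zc3h8: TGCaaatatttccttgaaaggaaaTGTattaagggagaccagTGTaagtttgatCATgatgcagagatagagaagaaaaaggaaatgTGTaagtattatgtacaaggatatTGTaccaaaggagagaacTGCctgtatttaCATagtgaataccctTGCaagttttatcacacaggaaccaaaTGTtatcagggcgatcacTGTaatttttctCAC
Zc3h4: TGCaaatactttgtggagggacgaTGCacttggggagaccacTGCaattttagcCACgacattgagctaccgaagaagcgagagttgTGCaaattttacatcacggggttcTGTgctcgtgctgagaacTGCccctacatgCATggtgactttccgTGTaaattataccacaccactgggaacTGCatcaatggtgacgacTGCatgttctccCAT
The first finger of Zc3h10 (chr10:128545307-128545363, minus strand, exon 3) and the only finger of Zc3h18 (chr8:122386928-122397855, plus strand, exons 3 and 4), both of 57 coding bases, are set beside them for their spacing.
Zc3h10: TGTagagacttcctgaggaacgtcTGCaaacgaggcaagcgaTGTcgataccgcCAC
Zc3h18: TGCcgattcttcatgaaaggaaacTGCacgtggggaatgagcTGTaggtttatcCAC
All 5 first fingers had 7 residues between the first and the second cysteine, 5 between the second and the third, and 3 between the third cysteine and the histidine. Translated, the Zc3h6 stretch matched that of Zc3h8 at 58 of 72 residues (80.6%) and that of Zc3h4 at 44 of 72 (61.1%), and Zc3h4 matched Zc3h8 at 39 of 72 (54.2%). The proteins differ far more in size than in these fingers: 305 residues for Zc3h8, 1177 for Zc3h6 and 1255 for Zc3h4. By the same search Zc3h3 and Zc3h14 had 5 fingers, Zc3h10 had 3, and Zc3h13, Zc3h15 and Zc3h18 had 1 each. In Zc3h18 the single finger is split between exons, and the finger spacing was met in 1 of its 3 coding transcripts. In Zc3h6 a short transcript with 453 coding bases had no finger. Values per gene cannot separate these transcripts.

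At MII the libraries held 93117615, 88494525 and 124872889 reads in WT replicates 1, 2 and 3 and 40530314, 23077585 and 38874759 in CKO replicates 2, 3 and 4; at GV, reads in the selected genes alone ranged from 6850576 to 11606262 and the full depth is unknown. All levels below are normalized counts, that is reads divided by the authors' size factor of the library. WT replicate 3 of MII stood apart before any gene was considered: its Spearman correlation with the other 5 libraries was 0.847 to 0.877, against 0.899 to 0.94 among those 5. The members' limma differences are therefore given with and without it, as are those of other listed genes where a limma difference is printed. Values of the authors' deposited MII table, of the neighbours and of the genes most like Zc3h6 include it. Lsm14b itself was at 30132, 18816 and 19845 normalized counts in the WT GV libraries and 1436, 1601 and 1273 in the CKO GV libraries, and at 10868, 10643 and 11641 in WT against 822, 982 and 920.1 in CKO at MII, so the targeted gene was lower in every library labelled CKO; its values cover the whole gene, and the deleted exons were not examined. The 12 oocyte markers were all measured at MII, summed to 586271 to 724400 in WT and 654121 to 758536 in CKO, and none was called by limma; without WT replicate 3, Zp3 was called higher. Single markers moved both ways: Zp3 (239% of WT), Zp2 (205%) and Nlrp5 (171%) lay higher in CKO and Dazl (30.3%) and Bmp15 (47.4%) lower, each without overlap between the genotypes.

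Zc3h6, the little studied vertebrate relative of Zc3h4, was lower in knockout oocytes at both stages, at under 10% of the control level. At GV its normalized counts were 60152, 57157 and 58995 in WT replicates 1, 2 and 4, and 6529.8, 5911 and 4552 in CKO replicates 1, 2 and 4. The lowest WT library was thus far above the highest CKO library, and the WT libraries lay close together. The means were 58768 ± 1511 in WT and 5664 ± 1012 in CKO (each SD, n = 3), so CKO held 9.64% of the WT level, a ratio of 10.4 and a log2 ratio of means of -3.38. The authors' deposited table gave Zc3h6 -3.37 ± 0.15 (SE) as its log2 fold change. In bulk samples, fewer oocytes that hold a transcript and less of it in each oocyte cannot be told apart.

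At MII the counts of Zc3h6 were 15091, 17682 and 12166 in WT replicates 1, 2 and 3, and 1435, 1180 and 1774 in CKO replicates 2, 3 and 4. Again no library of one genotype reached the range of the other, and WT replicate 3 was the lowest of the WT libraries. The means were 14979.5 ± 2760 (SD, n = 3) and 1463 ± 298 (SD, n = 3), so CKO held 9.77% of WT. The log2 difference from limma, computed on log2(normalized count + 1), was -3.36 with a standard error of 0.29, and -3.50 ± 0.22 (SE) without WT replicate 3. Between 466 and 29556 reads lay behind these values, so the spread between libraries, not counting, set their precision.

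**Figure D1:**
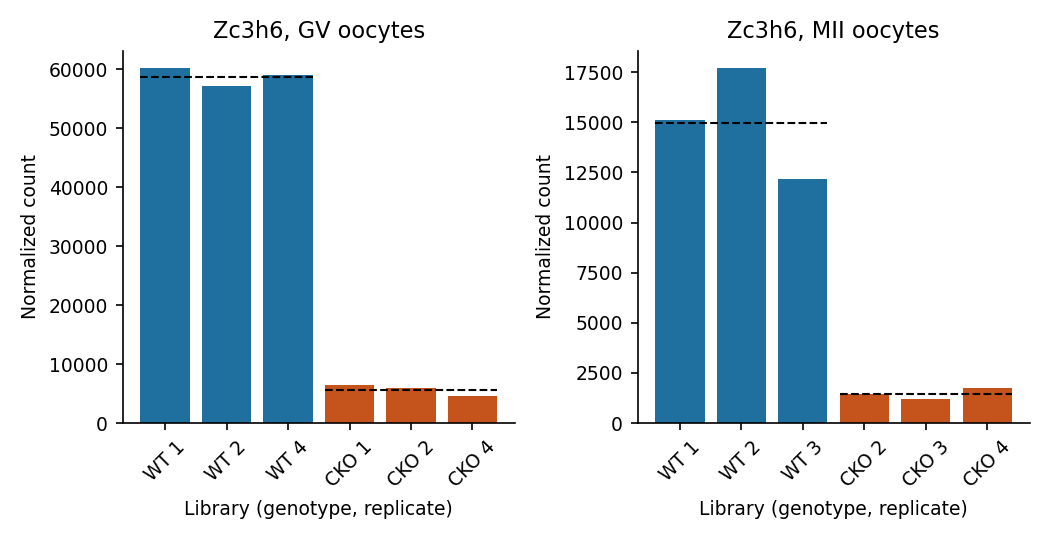
Normalized count of Zc3h6 (vertical axes, linear, each stage on its own scale) in each GV and MII library (horizontal axes), WT in blue and CKO in orange, with dashed lines at the mean of 3 libraries. The CKO means stand at 9.64% of the WT mean at GV and 9.77% at MII.

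The 2 tables were normalized separately, so levels are not compared between stages, but each table gives its own ratio. On the log2 scale, the fold changes of the authors' deposited tables were -3.37 at GV and -3.36 at MII. Their difference, MII minus GV, was 0.02 with a 95% interval from -0.65 to 0.69. Among the 3475 genes of the GV table Zc3h6 ranked 22 by its WT mean and 260 by its CKO mean. Its fall of 53104 normalized counts was the 8th largest fall of that table. At MII it ranked 676 of 22801 by its WT mean and 4436 by its CKO mean.

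Only Zc3h6 of the 9 members (lower) was called by limma at MII at an adjusted p under 0.05. Over all 20388 genes tested, 308 (1.51%) were called, 106 higher in CKO (0.52%) and 202 lower (0.991%), while limma-voom on the recovered reads split its calls into 91 higher and 80 lower. Without WT replicate 3, 890 genes (4.37%) were called and the same single member. Without any other single MII library (WT replicate 1 or 2, CKO replicate 2, 3 or 4) no gene was called, Zc3h6 included. By the authors' own adjusted p under 0.05 with over 2-fold, 2 members were called at MII, Zc3h6 lower and Zc3h10 higher, beside 1692 of 16042 genes (10.5%). At GV the same rule called 2758 of 21462 genes (12.9%), 1064 higher (4.96%) and 1694 lower (7.89%), and 1 member, Zc3h6. These are the contrasts on which the members were chosen, so nothing about the set is read from the counts. The median log2 difference at MII was -0.29 over the 9 members and -0.11 over all genes tested (-0.08 and -0.15 without WT replicate 3).

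The closest relatives by sequence took other values than Zc3h6. Zc3h4, which works with Wdr82 to restrict transcription outside genes, was at 10161, 9282 and 7653 normalized counts in WT and 16400.4, 16869.9 and 11815 in CKO. Here every CKO library lay above every WT library, and the mean was 166% of WT. The log2 difference was 0.73 ± 0.28 (SE), and 0.61 ± 0.21 without WT replicate 3. Zc3h8, a subunit of the little elongation complex that transcribes small nuclear RNA genes, was at 499.8, 546 and 1272 in WT and 549, 466 and 468 in CKO. The ranges overlapped, and the WT mean was carried by WT replicate 3, which held 243% of the mean of the other 2 WT libraries. Its log2 difference was -0.51 ± 0.46 (SE) with that library and -0.08 ± 0.18 without it. Of these 3 genes with matching finger spacing, Zc3h6 thus lay lower in CKO, Zc3h4 higher, and Zc3h8 within the spread of the libraries.

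Zc3h18 and Zc3h3 belong to the routes by which nuclear RNA reaches the exosome, the RNA-degrading complex. Zc3h18, which links the cap-binding complex to the exosome adaptor NEXT, was at 895, 1174 and 2829 in WT and 648, 582 and 713 in CKO. No CKO library reached the lowest WT library, and WT replicate 3 was the highest, at 273% of the mean of WT replicates 1 and 2. The log2 difference was -1.15 ± 0.46 (SE), and -0.67 ± 0.20 without that library, and CKO held 39.7% of the WT mean of 3 libraries but 62.6% of the mean of the other 2. Zc3h3, a partner of the poly(A) tail exosome targeting complex PAXT, was at 8322, 10274 and 9816 in WT and 6175, 9057 and 8128 in CKO. These ranges overlapped, with a log2 difference of -0.29 ± 0.27 (SE), or -0.27 ± 0.22 without WT replicate 3.

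Zc3h14, which binds poly(A) and limits tail length, was at 3289.8, 3051 and 3132 in WT, the closest WT replicates among the members (coefficient of variation 3.85%), and 2332, 4183 and 3528 in CKO. The log2 difference was 0.04 ± 0.31 (SE), with a 95% interval from -0.65 to 0.73, and its sign changed when CKO replicate 3 (-0.14) or 4 (-0.02) was left out. Zc3h13, a scaffold of the complex that writes m6A on mRNA, was at 4812, 5951 and 17941 in WT and 5518, 6340 and 6817 in CKO. WT replicate 3 held 333% of the mean of the other WT libraries, and the sign of the difference rested on it. The log2 difference was -0.37 ± 0.45 (SE) with this library and 0.21 ± 0.16 without it.

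Zc3h10, which has been linked to mitochondrial function, was the member with the lowest WT level. It was at 273, 274 and 135 in WT and at 1075, 428 and 500.0 in CKO, so that all CKO libraries lay above all WT libraries, with CKO replicate 2 far above the others. The log2 difference was 1.50 ± 0.55 (SE), and 1.16 ± 0.47 without WT replicate 3. Zc3h15, which stabilizes the ribosome-associated GTPase Drg1, was at 8951, 6739 and 9499 in WT and 5299, 7213 and 8916 in CKO. The groups overlapped, and the log2 difference was -0.25 ± 0.30 (SE), or -0.15 ± 0.28 without WT replicate 3.

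**Figure D2:**
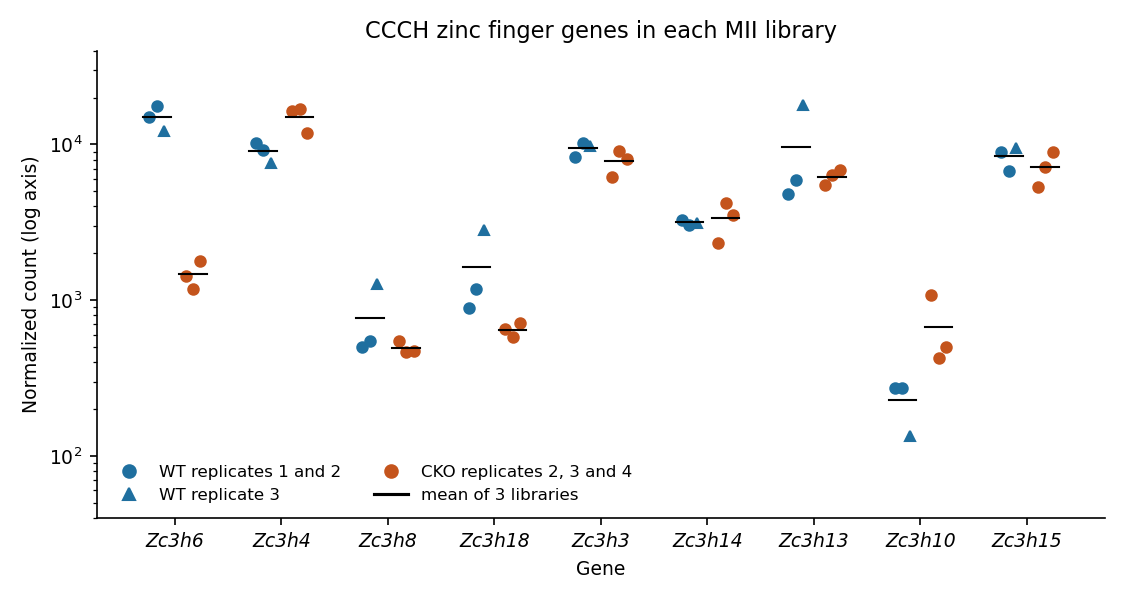
Normalized count (log axis) of the 9 genes in each of the 6 MII libraries, with WT in blue (WT replicate 3 as a triangle), CKO in orange and the mean of 3 libraries as a black line. Zc3h6 has the widest gap between the genotypes, and in Zc3h8, Zc3h18 and Zc3h13 the triangle stands at 243%, 273% and 333% of the mean of the other WT libraries.

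Across the set, 2 members had all CKO libraries above all WT libraries (Zc3h4 and Zc3h10) and 2 had them all below (Zc3h6 and Zc3h18), while 5 overlapped. Of all genes tested, 10.4% lay wholly above and 12.0% wholly below. The same 4 members did not overlap when WT replicate 3 was left out. WT replicate 3 was within 78.7% to 121% of the mean of the other WT libraries for Zc3h3, Zc3h4, Zc3h14 and Zc3h15, at 74.2% for Zc3h6 and at 49.3% for Zc3h10.

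**Figure D3:**
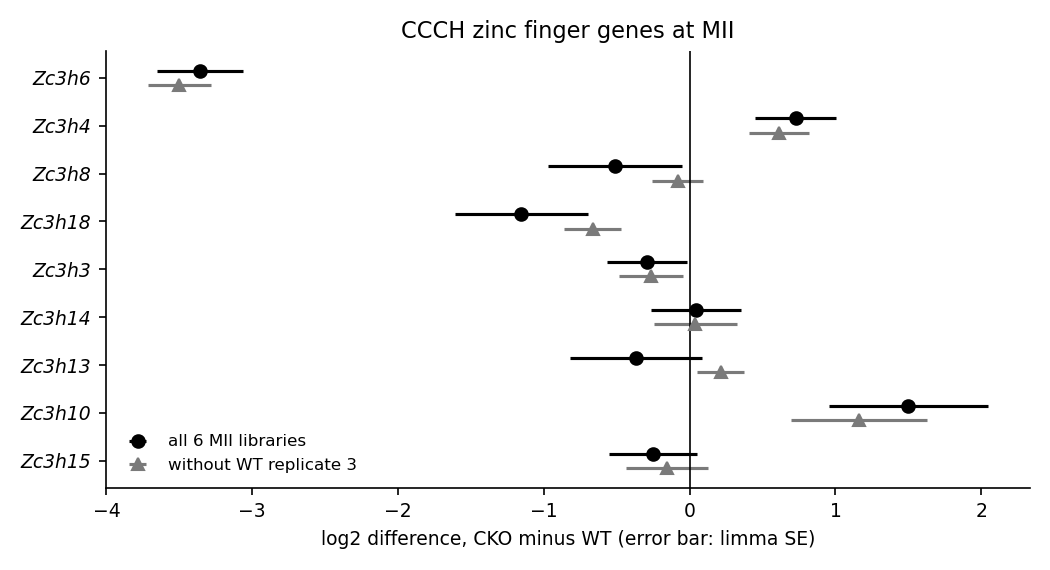
log2 difference between CKO and WT at MII for each gene (points) with the limma standard error (bars), from all 6 libraries (black circles) and without WT replicate 3 (grey triangles). Zc3h6 lies at -3.36 and -3.50, Zc3h18 moves from -1.15 to -0.67, and Zc3h13 changes sign, from -0.37 to 0.21.

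Levels of different genes were compared per kilobase of transcript, at MII. In WT the order of the mean normalized counts per kilobase was Zc3h15 (3977), Zc3h6 (3047), Zc3h3 (2817), Zc3h13 (1557), Zc3h4 (1496), Zc3h14 (899), Zc3h8 (476), Zc3h18 (441) and Zc3h10 (61.1). The WT ranges of the first 4 genes overlapped from one to the next in that order, as did those of Zc3h13 and Zc3h4 and of Zc3h8 and Zc3h18. Zc3h4 and Zc3h14, Zc3h14 and Zc3h8, and Zc3h18 and Zc3h10 were apart in all 3 libraries. The places of 3 genes rested on WT replicate 3: over WT replicates 1 and 2 alone Zc3h13 was at 876 and place 6, behind Zc3h4 (1609.8, place 4) and Zc3h14 (902, place 5). Zc3h8 and Zc3h18 kept places 7 and 8 at 322 and 279, and Zc3h6 kept place 2 at 3333. In CKO Zc3h6 held 298 ± 60.6 (SD, n = 3) per kilobase and stood at place 7, beside Zc3h8 at 304 ± 29.3 (SD, n = 3), and Zc3h4 stood at place 2 with 2489. Among 14479 genes with a length, 92.9% lay below Zc3h6 in WT and 62.9% in CKO. Of the summed normalized counts of the 9 genes, Zc3h6 made up 28.9%, 32.2% and 18.9% in WT replicates 1, 2 and 3 and 3.64%, 2.55% and 4.16% in CKO replicates 2, 3 and 4.

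**Figure D4:**
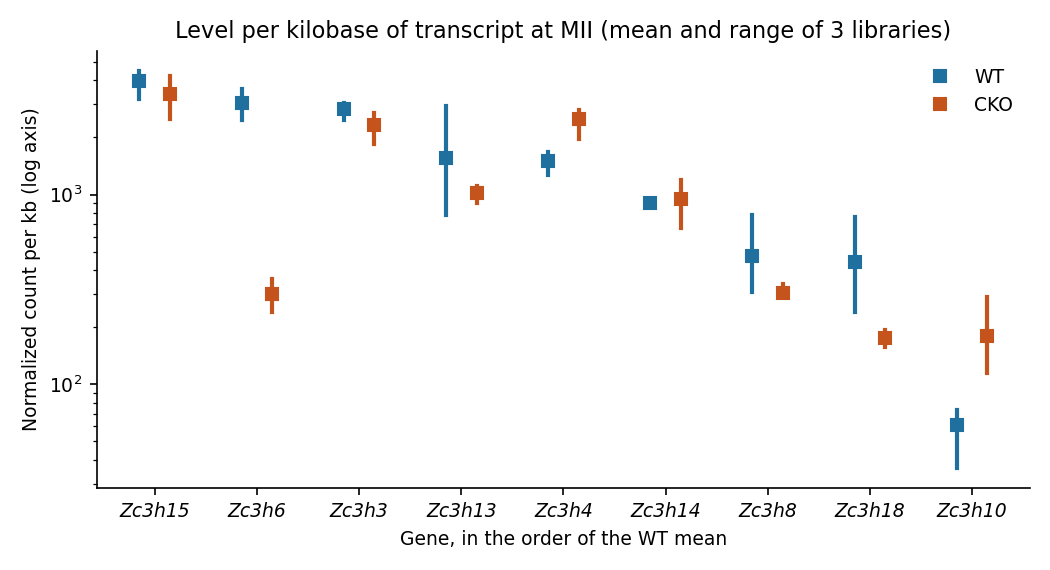
Normalized count per kilobase of transcript at MII (log axis) for the 9 genes in the order of their WT mean, with squares for the mean and bars for the range of 3 libraries, WT in blue and CKO in orange. Zc3h6 goes from place 2 in WT (3047 per kilobase) to place 7 in CKO (298), while Zc3h15 stays at place 1.

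Of the 5 annotated genes on each side of Zc3h6 on chromosome 2, 8 were measured at MII and none was called by limma. Zc3h8, the nearest measured gene upstream, lies on the opposite strand and was described above. Mertk, a receptor tyrosine kinase gene, was at 1489.9, 1149 and 1450.1 in WT and 456, 246 and 499.99 in CKO, without overlap; Mertk and the 3 further neighbours given here were picked after their values were seen. Ttl, tubulin tyrosine ligase, was at 185, 176 and 66.7 in WT and 26.2, 60.8 and 46.8 in CKO, also without overlap. At GV, 2 neighbours fell in the authors' deposited table: Polr1b, an RNA polymerase I subunit gene, by 1.15 and Chchd5, which codes for a mitochondrial protein, by 2.30 on the log2 scale. The transcript model Gm14027 overlaps the end of Zc3h6 on the same strand and held 0 to 60.2 normalized counts in the GV libraries. Whether the authors' counting used strand is not given in the sources used here, so antisense models such as Gm10762 at Zc3h6 and Eml5 at Zc3h14 are a limit on those genes.

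Genes like Zc3h6 were sought among 9506 genes with a mean normalized count of at least 100. Predicted (Gm), RIKEN and identifier-only gene models were left out. By Pearson correlation over the 6 MII libraries, the genes most like Zc3h6 were Dennd3, Wdr70 and Nfkbid (each 0.995), Pdcd2l (0.994) and Spry1 (0.994). These libraries form 2 separate groups, so the coefficients describe mainly the step between genotypes that all 5 genes share. The steps differed in size. Dennd3 held 53.7% of its WT level in CKO, Wdr70 32.1%, Pdcd2l 22.9% and Spry1, a feedback inhibitor of receptor tyrosine kinase signalling, 10.7%. Nfkbid had 356, 567 and 251 reads in the WT libraries and 0 in each CKO library. Of the 5, Nfkbid and Spry1 were also in the GV table, with -4.77 and -3.25 as the log2 fold changes of the authors' deposited table.

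Calls among other CCCH genes were set beside the share of all genes. Their list was chosen with earlier results of these data known, so the shares are descriptive. The list held 48 genes with CCCH fingers outside the 9 members, of which 39 were tested at MII. By limma 0 were called at MII, with or without WT replicate 3, and 12 (30.8%) had an unadjusted p under 0.05, against 16.0% of all genes. Limma-voom called 0, against 0.839% of all genes, and limma with array weights called 8 (20.5%), against 15.6%. The rule of the authors' deposited table, applied at MII, called 2 of the 38 with an adjusted p (5.26%, against 10.5% of all genes): Parp12, at -2.14 as its log2 fold change, and Zfp36, named after its call was seen. By limma Parp12 was at -2.02 ± 0.49 (SE), or -1.49 ± 0.44 (SE) without WT replicate 3. The median log2 difference was -0.21, against -0.11 over all genes. At MII 10 of the 39 lay wholly below WT and 4 wholly above, against 12.0% and 10.4% of all genes. At GV, 6 of the 48 fell and 1 rose in the authors' deposited table (14.6% called, against 12.9% of all genes). How many of the 48 were tested at GV is unknown, so 14.6% is a lower bound on their share. Unk, an RNA-binding translational repressor, fell from 43521, 33558 and 54715 in WT to 20686, 20462 and 17269 in CKO, or -1.17 ± 0.19 (SE) as the log2 fold change of the authors' deposited table. Every CKO library lay below every WT library, and at MII its limma log2 difference was -0.81 ± 0.30 (SE), or -0.89 ± 0.29 (SE) without WT replicate 3.

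Zc3hav1, the antiviral protein ZAP, fell at GV from 468, 789 and 553 in WT to 55.5, 2.32 and 40.1 in CKO, or -4.21 ± 0.80 (SE) as the log2 fold change of the authors' deposited table. Parp12, a mono-ADP-ribosyltransferase, fell at GV by 1.01 on the log2 scale, and Helz, an RNA helicase, fell by 1.36, both in that deposited table. Unkl, a relative of Unk, fell by 1.07 at GV, also in the authors' deposited table, and its limma difference at MII was 0.42 ± 0.95 (SE), or -0.35 ± 0.56 (SE) without WT replicate 3, so that its sign rested on that library. Zc3h11a, an mRNA export factor whose transcript also holds Zbed6, was at -2.97 ± 1.07 (SE) in the authors' deposited GV table, with overlapping libraries (369, 2153 and 1936 in WT, 398, 38.7 and 132 in CKO). The gene that rose was Mbnl3, a splicing regulator named here after its value was seen, at 124, 134 and 99.4 in WT and 225, 247 and 302 in CKO, or 1.12 as the log2 fold change of the authors' deposited table.

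Partner genes of the members were taken from 5 lists with 74 different genes. The lists were chosen with earlier results of these data known, so the shares and adjusted p-values below are descriptive. Of the 74 genes, 73 were tested at MII, where limma called 2 higher and 1 lower (4.11%, against 1.51% of all genes). Leaving out any 1 MII library other than WT replicate 3 left none of them called. The rule of the authors' deposited table called 10 of the 73 at MII (13.7%, against 10.5%), 3 higher and 7 lower, and 10 of the 74 at GV (13.5%, against 12.9%). With the 25 genes of nuclear RNA surveillance (exosome, NEXT, PAXT and cap-binding factors, partners of Zc3h18 and Zc3h3), limma called 1 higher, Srrt. The rule of the authors' deposited table at MII called Exosc3, Ncbp1, Nrde2, Phax and Zcchc8 of that list besides Srrt. Srrt codes for Ars2, which joins the cap-binding complex to Zc3h18. It was at 1239, 1774 and 1339 in WT and 4798, 5484 and 3888 in CKO at MII, so all CKO libraries were above all WT libraries. The log2 difference was 1.71 ± 0.30 (SE, limma adjusted p = 0.029), and 1.66 without WT replicate 3 (limma adjusted p = 0.045). At GV Srrt was at 4713, 3536 and 2788 in WT and 14539, 11766 and 12895 in CKO, or 1.83 ± 0.21 (SE) as the log2 fold change of the authors' deposited table.

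At GV 4 other genes of that list fell. Exosc3, an RNA-binding cap subunit of the exosome, was at 2029, 2348 and 2090.3 in WT and 291, 174 and 423 in CKO, or -2.87 ± 0.33 (SE) as the log2 fold change of the authors' deposited table. Exosc4, of the exosome ring, fell by 1.49 at GV, and Exosc10, the nuclear exosome nuclease, fell by 1.07, both in the authors' deposited table. Zfc3h1, the core of PAXT, fell by 1.03 at GV in the same deposited table. At MII Exosc3 had a limma log2 difference of -3.79 ± 0.81 (SE) that missed the threshold (adjusted p = 0.054), with 433, 436 and 1864 in WT and 88.1, 20.3 and 68.9 in CKO. Without WT replicate 3 this was -3.09 ± 0.76 (SE, limma adjusted p = 0.114), while the authors' deposited MII table called Exosc3, at -3.93 (adjusted p = 2.99e-05). Exosc10 was called by limma at MII only without WT replicate 3 (log2 difference -1.22, adjusted p = 0.035, against -0.84 and adjusted p = 0.288 with it).

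Of the 10 genes listed as partners of Zc3h4 and Zc3h8, Ice1 was called lower by limma at MII. Ice1 is the scaffold of the little elongation complex to which Zc3h8 belongs. It was at 24280.0, 33709 and 36661 in WT and 10362, 13095 and 12618 in CKO, with no overlap and a log2 difference of -1.38 ± 0.28 (SE, limma adjusted p = 0.048). Without WT replicate 3 it was -1.26 and no longer called (limma adjusted p = 0.057). The call was lost in 11 of 12 alternatives (adjusted p 0.057 to 0.587) and kept with array weights alone, with the difference between -1.59 and -1.26 throughout. At GV Ice1 fell from 76923, 51461 and 73293 in WT to 22600, 27091 and 22050 in CKO, or -1.49 ± 0.18 (SE) as the log2 fold change of the authors' deposited table. Ell3, an elongation factor of the ELL family, rose by 1.01 at GV in the authors' deposited table. Wdr82, the partner of Zc3h4, was not called at either stage.

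Of the 20 tested genes around Zc3h14, in mRNA export, polyadenylation and poly(A) binding, limma called 1 at MII, Pabpc1. Pabpc1, the main cytoplasmic poly(A)-binding protein, was at 561, 196 and 484 in WT and 6982, 4183 and 6219 in CKO at MII. The CKO libraries were all above the WT libraries by a wide margin, with a log2 difference of 3.91 ± 0.45 (SE, limma adjusted p = 0.0091) and 4.09 without WT replicate 3 (limma adjusted p = 0.038). At GV it was at 3669, 1683 and 2264 in WT and 21178, 20245 and 25409 in CKO, or 3.13 ± 0.26 (SE) as the log2 fold change of the authors' deposited table. Thoc2, a subunit of the THO export complex, fell by 1.12 at GV in the authors' deposited table, and at MII its limma difference was -1.27 ± 0.37 (SE, adjusted p = 0.124), or -0.98 ± 0.27 (SE, adjusted p = 0.137) without WT replicate 3. The authors' deposited MII table called Thoc2, at -1.30 (adjusted p = 0.0175).

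None of the 14 genes of the m6A list, partners and readers around Zc3h13, was called by limma at MII. The rule of the authors' deposited table did call Mettl14 there. Limma with array weights, which called 15.6% of all genes, called Mettl3, Mettl14 and Ythdf2. These were named after their calls were seen. At GV Cbll1, a partner of Zc3h13 in the writer complex, fell from 18327, 12014 and 21883 in WT to 6274, 4798 and 4832 in CKO, or -1.72 ± 0.23 (SE) as the log2 fold change of the authors' deposited table. At MII its ranges overlapped, with 9307, 5537 and 1085 in WT and 3472, 3767 and 2114 in CKO, with a log2 difference of -0.34 ± 0.67 (SE) by limma. That sign changed without WT replicate 1 (0.30) and with a block for the replicate number (0.56). WT replicate 3 was the lowest library, and without it the ranges did not overlap and the difference was -1.25 ± 0.37 (SE, limma adjusted p = 0.164). None of the 5 genes around Drg1 and Zc3h15 was called at either stage. For 18 genes named here with a fold change at both stages, the stage difference was tested from the authors' deposited fold changes and errors. No unadjusted p of this test was under 0.05, and the lowest adjusted p was 0.64. The test cannot show that the stages are alike. A GV value was available only for genes selected there, which favours large fold changes at that stage. The narrowest interval of MII minus GV ran from -0.21 to 0.99 (Lsm14b) and the widest from -5.69 to 3.59 (Mbnl3).

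**Figure D5:**
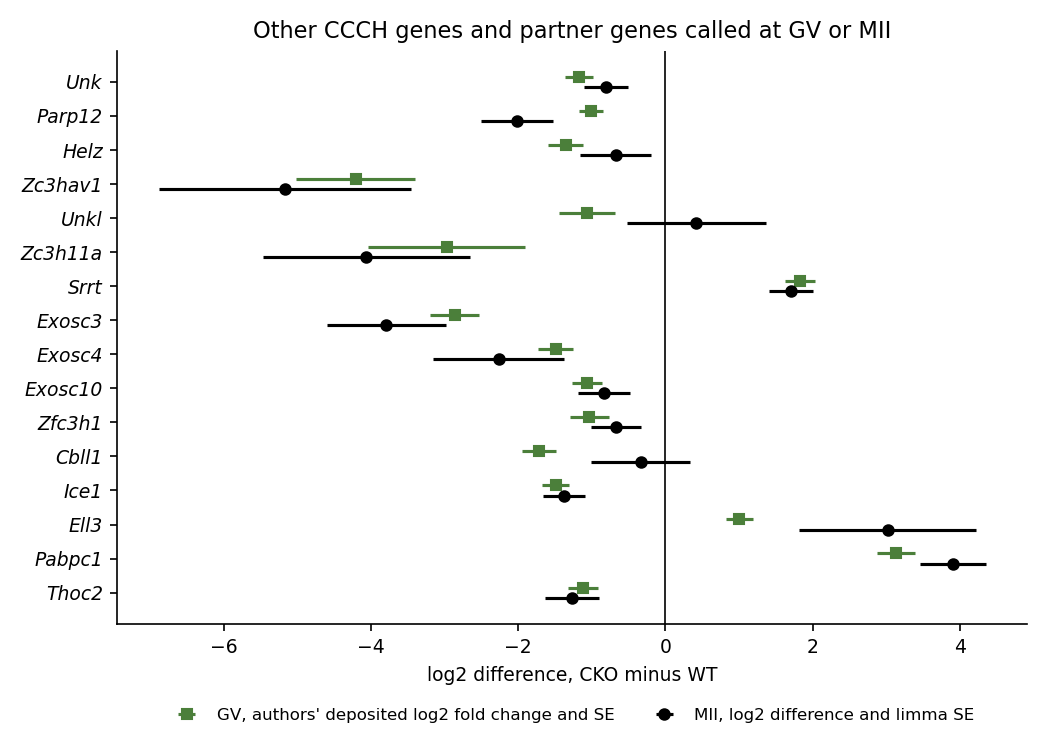
log2 difference between CKO and WT (horizontal axis) for other CCCH genes and partner genes called at GV or MII, with green squares for the authors' deposited GV values and black circles for limma at MII, and bars for standard errors (Mbnl3 is not drawn). Pabpc1 and Srrt lie right of 0 and Ice1 and Exosc3 left of 0 at both stages; the MII value of Unkl (0.42) is -0.35 without WT replicate 3.

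Markers of other cells of the ovary were compared between the genotypes. At MII 0 of 9 tested cumulus and granulosa markers, 0 of 6 theca, stroma and endothelium markers and 1 of 4 blood and immune markers (C1qb, lower) were called by limma. Summed, they were at 2631 to 5240.5, 3760 to 4715 and 1115 to 1973 normalized counts in WT and at 3193 to 4333, 3942 to 4671 and 194 to 255 in CKO. In WT most of the first sum came from Nr5a2 and Cyp19a1 and most of the second from Pecam1 (2841 to 4060). Most of the third came from C1qb (1049 to 1904), while C1qa and C1qc were not measured. The sums are thus no measure of cell types. Without WT replicate 3 the same numbers of markers were called. Of the 10 measured granulosa and cumulus markers, 3 (Fshr, Inhba and Nr5a2) were higher in CKO without overlap, at 34.2, 4.79 and 0 (Fshr), 5.89, 0 and 0 (Inhba) and 1572, 1697 and 1834 (Nr5a2) in WT and 157, 96.2 and 90.9, 26.2, 10.1 and 37.2, and 2298, 2474 and 2865 in CKO. Kdr and Tie1, of endothelium, were lower in CKO without overlap. None of the 10 was lower in CKO without overlap. Cyp19a1 overlapped, at 734, 918 and 3071 in WT and 774, 354 and 997 in CKO. Amh, Cd44, Has2 and Hsd17b1 were at 0 in every CKO library, but each was also at 0 in at least 1 WT library. The theca markers Cyp11a1 and Cyp17a1 were at 0 in every WT library. They were above 0 in only 1 CKO library each, at 16.5 (Cyp11a1, CKO replicate 2) and 5.51 (Cyp17a1, CKO replicate 4). The CKO libraries also held fewer reads than the WT libraries. At GV 4 theca, stroma and endothelium markers (Col1a2, Kdr, Pdgfra and Tie1) and C1qb were lower in CKO and Cd68 was higher, in the authors' deposited table. Their part in the values of the CCCH genes was not tested.

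The 3′ ends of the transcripts were searched for the letters UUUUAU, the core of the cytoplasmic polyadenylation element that governs translation of many maternal mRNAs. In the last 200 bases, on the sense strand, 3837 of 16975 genes (22.6%) held them. Zc3h3 held 2 copies and Zc3h13, Zc3h14 and Zc3h18 held 1 each. The letters were not in this window of Zc3h4, Zc3h6, Zc3h8, Zc3h10 and Zc3h15, which says nothing of other windows or of any factor.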

How the data were processed

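RNA from 12 libraries of 15 oocytes each was sequenced with standard Illumina libraries, per the labels' protocols, with 3 biological replicates per group. For the aligner, genome build, annotation and strand, nothing is given in the sources used here. The authors deposited each library's values as log10 of the normalized count + 1. The other columns, per the file headers, were the signal averaged over libraries, the log2 fold change and its error, a score, and p-values before and after adjustment. Each normalized count was a whole multiple of 1 unit per library (100% within 0.05 of a whole number), which gave the reads.

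At MII, log2(normalized count + 1) of genes with a mean of at least 1 was fitted with limma 3.58.1 with a trend (R 4.3.3), comparing CKO with WT, with Benjamini-Hochberg adjustment over 20388 genes. The fit was tested on simulated data. At GV only selected genes were deposited, so the authors' deposited values were used, calling genes over 2-fold with an adjusted p under 0.05. The number of genes tested at GV was implied by the adjusted p-values. The score was not used further. Lengths, coding sequences and neighbours came from GENCODE M21 (GRCm38), read with Python 3.11.15 and Biopython 1.88. A finger was 3 cysteines and a histidine with gaps of 4 to 15, 4 to 6 and 3 residues.

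The members and the gene lists were chosen with earlier results of these data known. Named were Lsm14b, the 9 members, up to 6 genes called per list and stage by smallest p, and the 5 genes most like Zc3h6. Alternatives were another pseudocount, no filter, library size alone, limma-voom on the recovered reads, array weights, a replicate block, a 2-fold minimum and leaving out each library.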

Additional observations from a re-analysis of the deposited data

How the results depend on the processing

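For Zc3h6 the log2 difference at MII stayed between -3.57 and -3.21 under all 12 alternatives, and the log2 ratio at GV between -3.49 and -3.24 under all 9. The calls at MII, that of Zc3h6 included, depended on the processing. The 308 genes called became 171 (91 higher, 80 lower) with limma-voom on the recovered reads, 3190 with array weights and 0 with the replicate block, and 0 to 890 when 1 library was left out. At MII only replicate numbers 2 and 3 occur in both genotypes, so the block rests on those libraries alone. Its 0 calls thus come from fewer libraries than the main analysis. With limma-voom 148 of the 308 were shared, and 53.2% of its calls were higher, against 34.4% in the main analysis. The members called (1) became 2 with array weights (Zc3h4 was added, higher) and 0 with the replicate block, and 0 to 1 with a library left out. The partner genes called (3) became 1 with limma-voom, 21 with array weights, 0 with the replicate block, and 0 to 3 with a library left out. The other CCCH genes called (0) became 8 with array weights. With the adjusted p ranging from 0.00196 to 0.587 for Srrt, 9.43e-05 to 0.587 for Pabpc1 and 0.00136 to 0.587 for Ice1, each kept its direction in all 12 alternatives, and the call held in 5 (Srrt), 6 (Pabpc1) and 1 (Ice1) of them. A further count took 300 values of single genes under the alternatives, without Zc3h6. It judged members by their move against the spread alone and other genes by their calls. Of these values 267 kept their side of the threshold or moved by less than the spread. Of the rest, 24 lost and 8 gained a call, and 1 moved (Zc3h4, 0.98 with the replicate block). The call of Zc3h4 with array weights is not among the 8. Sign changes of genes not called counted as kept. Among members, the sign changed for Zc3h13 with array weights (0.04) and without WT replicate 3 (0.21), and for Zc3h14 without CKO replicate 3 (-0.14) or 4 (-0.02). The cause of these changes was not tested. The median of all genes was -0.11 and lay between -0.19 and 0.02 over the settings.

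Whether libraries with the same replicate number were paired is not given in the labels, and the few correlations below cannot settle it. The deviations of same-numbered WT and CKO libraries correlated at -0.012, 0.016 and 0.001 at GV and at 0.013 and -0.10 at MII. With the replicate block the log2 difference of Zc3h6 was -3.49 at MII, from replicates 2 and 3 alone, and -3.39 at GV. At GV every number occurs in both genotypes, so the block gives the same mean log2 difference as without pairing. Counting is no limit for Zc3h6, but depth at GV is unknown, and 3 libraries per group limit every comparison.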
